A study of Mus musculus with 4 samples.

Results

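Protein phosphatases and the kinases that work against them were represented by 103 of the 24185 named genes on the array, carried by 152 of its 55681 probes and 161 of its 59305 spots. The members were every gene whose symbol begins with Ppp1 to Ppp6, the catalytic and regulatory subunits of the serine/threonine phosphatases PP1, PP2A, calcineurin, PP4, PP5 and PP6, and every gene named as a subunit of PKA (Prkaca to Prkar2b), AMPK (Prkaa1 to Prkag3), PKC (Prkca to Prkcz) or PKG (Prkg1 and Prkg2). Of these, 26 encode catalytic subunits or whole kinases and 75 encode regulatory subunits, inhibitors or targeting proteins. The other 2, Prkcsh (the beta subunit of glucosidase II) and Prkcdbp (a caveola protein that binds PKC delta), share the letters of the PKC genes but are neither, and they were counted in neither role.

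RNA was precipitated from cortical and hippocampal lysate of male C57BL/6 mice aged 8 weeks with CPEB2 IgG or with control IgG on beads, in an incubation of 3 hours, and hybridised to 4 one-colour Agilent mouse arrays, 2 for each antibody. No genotype or drug differed between the groups, and the antibody was the only labelled variable. The comparison asks which mRNAs came down with CPEB2, an RNA-binding protein of the cytoplasmic polyadenylation element family, above what control IgG brought down. The submitters' titles and protocol name CPEB2 for these precipitates. The description of the same samples gives CPEB3 IgG instead, and the titles were followed.

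All 4 arrays had 68.4% to 74.1% of spots well above background and no saturated spot. The arrays of an antibody lay next to each other on 1 slide, and an effect of place on the slide cannot be told apart from that of the antibody. The mRNA of Cpeb2 itself had signals of 2410 and 1877 in the CPEB2 IgG arrays against 299 and 297 in the control arrays, a log2 fold change of 2.89 ± 0.25 (limma standard error, here and below; adjusted p = 0.00543). Markers of neurons and of 3 glial types were detected on the arrays and moved in both directions within a list. Of the 6 neuron markers 1 was higher and 3 were lower, of the 5 astrocyte markers 2 and 2, of the 5 microglia markers 1 and 2, of the 5 oligodendrocyte markers 0 and 2, and none of the 4 endothelial markers was called. Over all genes tested 21.2% were higher and 20.4% lower. Each lysate pooled all cell types and was divided between the antibodies, and the cause of the marker differences was not tested.

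Reversible phosphorylation of serine and threonine sets the strength of synapses, with PKA, PKC and AMPK adding phosphate and PP1, PP2A and calcineurin removing it. Phosphatase catalytic subunits are few and act in complex with many regulatory subunits, which decide where the enzyme goes and which substrates it meets. PKA is held inactive by its regulatory subunits until cAMP binds them, AMPK senses the energy state through its gamma subunits, and PKC isoforms are grouped by whether calcium and diacylglycerol activate them.

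CPEB proteins bind U-rich cytoplasmic polyadenylation elements, written in DNA letters as TTTTAT or TTTTAAT. These letters occurred as written in 9 of the 152 member probes (5.92%, against 4.54% of all probes), and on the other strand in 8 member probes (6.5% of all probes). The windows of 30 bases around each match, read from the probe sequences in the deposited files, are shown because they are the stretches of member mRNA in which the element could be seen directly. The element is in capitals, and positions are those of the whole probe in the array annotation on mm9.
Ppp2r5a, chr1:193175883-193175942, minus strand: tatggaaaactgTTTTATaatgagagatct
Prkci, chr3:30951503-30951562, plus strand: gccagtacttatttagaaaattgTTTTAAT
Prkca, chr11:107799587-107799646, minus strand: tgctagaaggaTTTTAATatgttttgcgag
Ppp3cb, chr14:21319265-21319324, minus strand: actattcaagtaTTTTATaaacagtagcac
Ppp2r2a, chr14:67634860-67634919, minus strand: TTTTATgccttccattgtgatgacgtcaaa
Ppp1r2, chr16:31254346-31254405, minus strand: gtcatttcttcTTTTAATcaaaagcctatt
Ppp1r2, chr16:31254154-31254213, minus strand: ggaataaaatctTTTTATccaaactggttt
Prkag1, chr15:98643402-98643461, minus strand: tcggtaaaatatTTTTATtcgtcttgtttc
Ppp5c, chr7:17590008-17590067, minus strand: ccccagctaTTTTATgttctgtaattaact
A match is a description of a 60-base probe and says nothing of the rest of the transcript. Whether these probes lie in coding exons or in untranslated regions was not analysed here.

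With the brightest detected probe standing for each gene, 98 of the 103 members could be tested. The 5 not detected on at least 2 arrays were Ppp1r3a, Ppp1r14d, Ppp1r42 and the annotated copies Ppp1r2-ps7 and Ppp1r2-ps9. limma called 24 members higher with CPEB2 IgG (24.5%, against 21.2% of all 19698 genes tested) and 25 lower (25.5%, against 20.4%), and 49 were not called. Both shares were near those of all genes. The median log2 fold change was -0.09 over the members and -0.11 over all genes. Both CPEB2 IgG arrays stood above both control IgG arrays for 41 members (33.7% of all genes did so) and below them for 39 (38.2%), and the arrays overlapped for 18. The members ranged from -3.05 for Ppp2r1a to 2.77 for Prkar2b on the log2 scale, and 84 had the same sign in both experiments. The median over all genes was 0.11 when each array was centred on its median, 0.08 under GC-bin centring, 0.02 under quantile normalization and -0.22 with the percentile over probes detected on all arrays. Median centring split the members into 30 higher and 20 lower, and all 19698 genes into 5212 higher and 3301 lower. Fits on 3 arrays called fewer members without control IgG replicate 1, control IgG replicate 2 or CPEB2 IgG replicate 2. The same fits also called fewer of all genes tested, with all-gene medians of -0.15, -0.07 and -0.04 in that order. Each of these fits leaves 1 antibody with a single array, which is assumed to vary like the pair of the other antibody. Such a fit can call a gene in either direction where arrays of 1 antibody differ widely, as for Ppp3r2, near background, at -2.72 (adjusted p = 0.00625) without control IgG replicate 1 and 2.23 (0.0113) without control IgG replicate 2. Of the 49 called members, 20 were called without each array in turn, 9 of them higher (Prkar2b, Ppp1r14b, Prkaa1, Ppp2r5a, Ppp6r3, Ppp1r3d, Prkci, Prkca and Ppp2cb) and 11 lower (Ppp2r1a, Ppp2r5d, Ppp1r35, Ppp1r11, Prkcd, Ppp1r3g, Prkar1a, Ppp1r14a, Ppp1r12b, Prkcq and Prkce). The other 29 lost their call without at least 1 array, as given with each member described below.

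**Figure D1:**
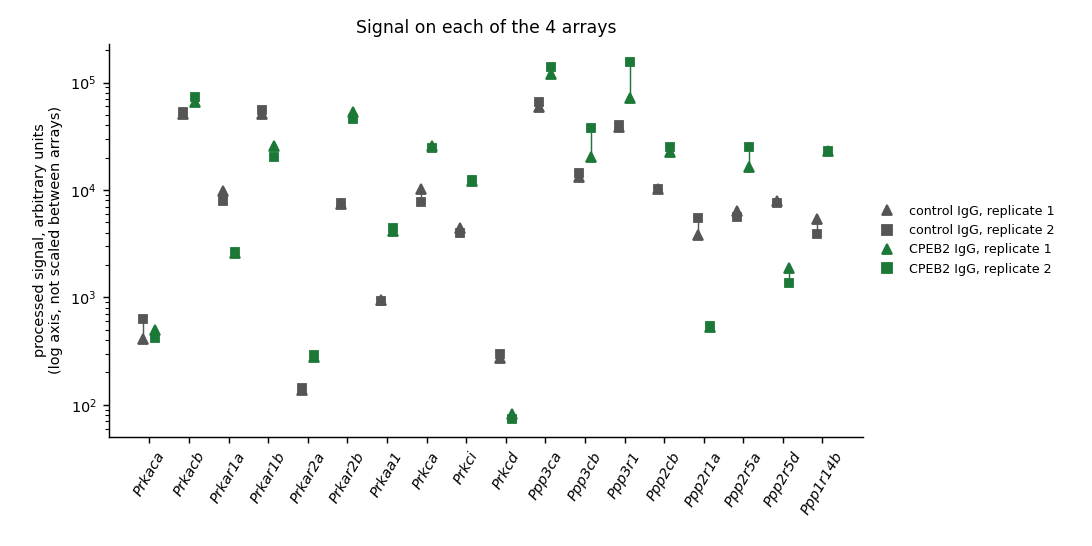
Processed signal of 18 members on each array, on a log axis and before scaling between arrays. Grey marks are control IgG and green marks CPEB2 IgG, with triangles for replicate 1 and squares for replicate 2. Signals of different genes come from different probes and cannot be set against each other. Prkar2b and Prkaa1 were higher on both CPEB2 IgG arrays, Ppp2r1a, Ppp2r5d and Prkcd were lower on both, and those of Prkaca overlapped.

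Of the 6 PKA subunits, both type II regulatory subunits rose with CPEB2 IgG, both type I regulatory subunits fell, and neither catalytic subunit was called. That is 33.3% higher and 33.3% lower, against 21.2% and 20.4% of all genes tested. Prkar2b, the type II beta subunit, gave signals of 52707 and 45986 in the CPEB2 precipitates against 7441 and 7562 in the controls. The antibodies were far apart and the replicates close, and the difference was 2.77 ± 0.24 (6.81-fold, adjusted p = 0.00543), the largest rise among the members. Its 3 probes, at chr12:32643366-32643425, chr12:32644030-32644089 and chr12:32644692-32644751, gave 2.77, 2.10 and 2.05, and each was called alone. Prkar2a, the type II alpha subunit, gave signals of 281 and 292 against 136 and 143, without overlap, and rose by 1.09 ± 0.23 (adjusted p = 0.0214). Without control IgG replicate 1 or 2 its adjusted p was 0.0846 or 0.0568.

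Prkar1b, the type I beta subunit found mainly in neurons, gave 25446 and 20310 with CPEB2 IgG against 50902 and 55831 with control IgG. Both CPEB2 IgG arrays were lower, by -1.18 ± 0.26 (adjusted p = 0.0237), and a second probe gave -1.63. Its adjusted p was 0.0774 without control IgG replicate 2 and 0.0577 under quantile normalization. Prkar1a, the type I alpha subunit, gave 2603 and 2656 against 9722 and 7872, a change of -1.68 ± 0.24 (adjusted p = 0.00817). That value belongs to the probe at chr11:109529011-109529070. The probe further along the same transcript, at chr11:109530521-109530580, gave 3883 and 6704 against 4455 and 4533 and a change of 0.24, with the arrays overlapping. Both probes hold 21 G or C bases of 60. Under quantile normalization the second probe became the brighter of the pair and the gene's value turned to 0.17, so the direction for Prkar1a rests on which probe is read. Prkacb, the beta catalytic subunit, gave 65632 and 73422 against 51465 and 52662, which is 0.47 ± 0.23 (adjusted p = 0.168). Prkaca, the alpha catalytic subunit, gave 496 and 421 against 412 and 625, with overlapping arrays and a difference of -0.10 ± 0.31 (adjusted p = 0.823). Its sign turned under median centring (0.13) and under GC-bin centring (0.054).

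Of the 7 AMPK subunits 1 rose and 1 fell (14.3% each, against 21.2% higher and 20.4% lower of all genes tested). Prkaa1, the alpha 1 catalytic subunit, gave 4184 and 4456 with CPEB2 IgG against 947 and 934 with control IgG. Both experiments gave nearly the same difference, 2.23 and 2.28, and the mean was 2.25 ± 0.23 (4.76-fold, adjusted p = 0.00549). The paralogue Prkaa2, the alpha 2 catalytic subunit, gave 1539 and 1369 against 1097 and 1054, a difference of 0.49 ± 0.23 (adjusted p = 0.16). Prkag1, the gamma 1 nucleotide-sensing subunit, gave 942 and 1022 against 2162 and 1815 and was lower by -0.96 ± 0.24 (adjusted p = 0.0334). This call did not hold without control IgG replicate 1 (adjusted p = 0.133) or replicate 2 (0.0758), nor under median centring (0.0876). The other gamma subunits Prkag2 (0.59) and Prkag3 (-0.19) and the beta scaffold subunits Prkab1 (-0.35) and Prkab2 (-0.03) were not called.

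The PKC isoforms divided between the directions. Both atypical isoforms, which need neither calcium nor diacylglycerol, were higher on their brightest probe, beside 21.2% of all genes. Their probes had a median GC content of 37.5%, and 32.3% of all genes read by probes with up to 24 G or C bases were higher. Prkci gave 12131 and 12316 against 4396 and 3944 and rose by 1.61 ± 0.23 (adjusted p = 0.00842). Prkcz, the zeta isoform, gave 11618 and 17523 against 6965 and 7090 and rose by 1.07 ± 0.26 (adjusted p = 0.0297). For both isoforms, the CPEB2 IgG arrays lay above the control IgG arrays on that probe, as for 33.7% of all genes tested. Another Prkcz probe, at 1822 and 1831 against 3209 and 3775, gave -0.88, and a dim one gave 0.93. The mean of the Prkcz probes gave 0.38 (limma adjusted p = 0.24), so its rise rests on which probe is read. The Prkcz call was lost without control IgG replicate 1 (adjusted p = 0.111), control IgG replicate 2 (0.0868) or CPEB2 IgG replicate 2 (0.0624). Of the isoforms that need diacylglycerol but not calcium, 3 of 4 were lower, beside 20.4% of all genes and 27.5% of those read by probes above 24 G or C bases (the 4 probes had a median GC content of 45.8%). Prkce gave 707 and 570 against 1675 and 1550 and fell by 1.29 on the log2 scale (SE 0.24, adjusted p = 0.0149). Prkcd (82.9 and 73.9 against 270 and 298) fell by 1.80 (adjusted p = 0.00757) and Prkcq (76 and 74.4 against 195 and 230) fell by 1.44 (adjusted p = 0.0119), both at dim signals. Both probes of Prkcd were called lower, whereas the second tested probe of Prkcq gave -0.29. The fourth of these, Prkch, gave 56.5 and 46.3 against 26.6 and 80.7, with opposite signs in the experiments and an adjusted p of 0.782. Under GC-bin centring a different probe became its brightest, and that probe was called higher at 0.95 (adjusted p = 0.0298).

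Of the isoforms that respond to both calcium and diacylglycerol, Prkca gave 25531 and 24670 against 10118 and 7689 and rose by 1.56 ± 0.24 (adjusted p = 0.00955). Its other probe, the one with TTTTAAT shown above, gave 1.34 and was also called. Prkcb gave 21978 and 34154 against 18778 and 21576, with a difference of 0.50 ± 0.25 (adjusted p = 0.169). The cGMP-dependent kinases Prkg1 and Prkg2 were both at -0.31, with adjusted p of 0.384 and 0.35, and under GC-bin centring they were at 0.0039 and 0.0019.

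**Figure D2:**
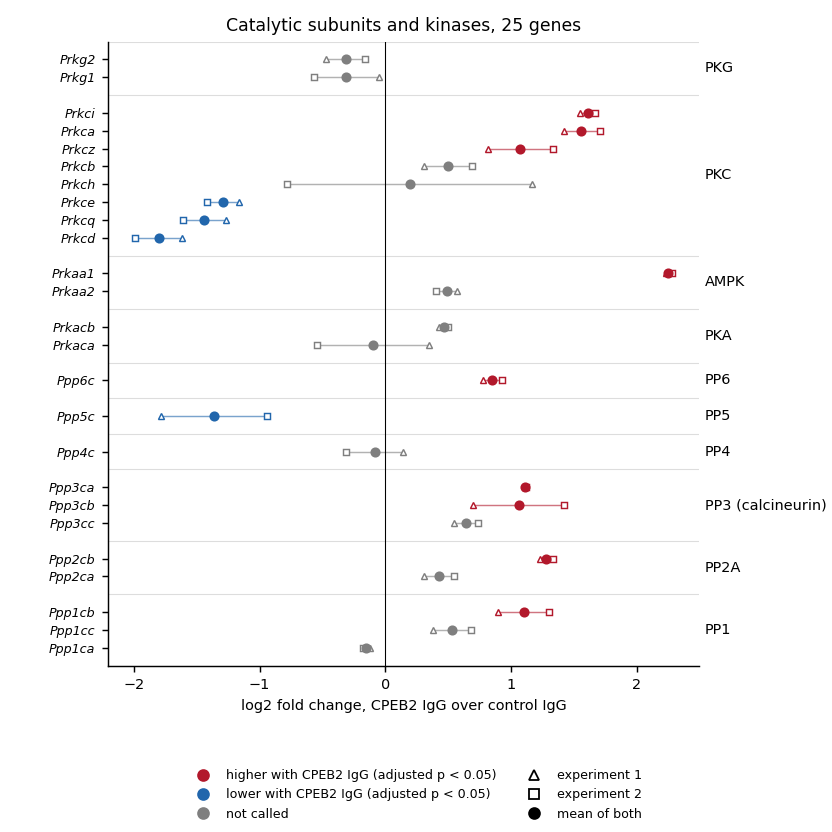
Log2 fold change of CPEB2 IgG over control IgG for 25 of the catalytic members, by family. Open triangles and squares are the 2 experiments and filled circles their mean, coloured by the limma call. Prkaa1 is highest at 2.25 and Prkcd lowest at -1.80, and the PKC isoforms lie on both sides of 0.

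Among the 11 phosphatase catalytic subunits 5 were higher and 1 was lower (45.5% and 9.09%, against 21.2% and 20.4% of all genes tested), with a median of 0.64. Their probes had a median GC content of 35%, and of all genes read by probes with up to 24 G or C bases of 60, 32.3% were higher and 12% lower. Calcineurin, the phosphatase switched on by calcium and calmodulin, had 3 of its 5 genes higher (60%) and none lower. Ppp3ca, its alpha catalytic subunit, gave signals of 121158 and 140709 against 59608 and 65972, a rise of 1.11 ± 0.23 (adjusted p = 0.0201). Ppp3cb, the beta catalytic subunit, gave 20056 and 37826 against 13114 and 14336, a rise of 1.06 ± 0.28 (adjusted p = 0.0403). Ppp3r1, the calcium-binding B subunit, gave 71894 and 156784 against 38316 and 40018, a rise of 1.49 ± 0.33 (adjusted p = 0.0233). In all 3 the CPEB2 IgG arrays lay above the control arrays, as they did for 33.7% of all genes tested. For Ppp3cb and Ppp3r1 the second CPEB2 IgG array was well above the first. None of the 3 calls held without control IgG replicate 1 (adjusted p 0.0806 to 0.174) or control IgG replicate 2 (0.052 to 0.111), and that of Ppp3cb was also lost without CPEB2 IgG replicate 2 (0.117) and in the fit with no replicate block (0.0702). Ppp3cc, the gamma catalytic subunit, gave 0.64 ± 0.23 (adjusted p = 0.0863). Ppp3r2, a B subunit of the testis, was near background at 19.3 and 12.4 against 3.48 and 104. It gave 2.55 in one experiment and -3.04 in the other, so its mean of -0.25 describes neither.

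Of the PP1 catalytic subunits, Ppp1cb gave 13973 and 18525 against 7919 and 7672 and rose by 1.10 ± 0.25 (adjusted p = 0.025). Without control IgG replicate 1 or 2 its adjusted p was 0.0821 or 0.0764, and its second, dim probe gave -0.02. Ppp1cc gave 0.53 ± 0.24 (adjusted p = 0.142). Ppp1ca gave 37865 and 36379 against 43620 and 41778, a difference of -0.15 ± 0.23 (adjusted p = 0.64) whose sign turned under quantile normalization (0.19), median centring (0.079) and GC-bin centring (0.36). Of the PP2A catalytic subunits, Ppp2cb gave 22802 and 25296 against 10307 and 10210 and rose by 1.28 ± 0.23 (2.43-fold, adjusted p = 0.0141). Ppp2ca gave 12397 and 15387 against 10601 and 10647, a difference of 0.43 ± 0.24 (adjusted p = 0.206), and its second probe gave -0.44. Ppp6c, the PP6 catalytic subunit, gave 2770 and 2971 against 1709 and 1589 and rose by 0.85 ± 0.23 (adjusted p = 0.0417). The Ppp6c call was lost without control IgG replicate 1 (adjusted p = 0.129), control IgG replicate 2 (0.142) or CPEB2 IgG replicate 2 (0.0573). Ppp4c, the PP4 catalytic subunit, had overlapping arrays at -0.08 ± 0.25. Ppp5c, a phosphatase with its own tetratricopeptide repeats that works with Hsp90, was the lower one, at 1361 and 2678 against 4963 and 5239 (-1.36 ± 0.30, adjusted p = 0.0238). Its adjusted p was 0.0669 without control IgG replicate 1 and 0.0868 without control IgG replicate 2.

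PP2A pairs a catalytic subunit with a scaffold and a B subunit, and its 15 non-catalytic members ranged from -3.05 to 1.82. The scaffold Ppp2r1a gave 528 and 536 with CPEB2 IgG against 3808 and 5488 with control IgG. Both control arrays were several times brighter, and the difference of -3.05 ± 0.26 (8.28-fold lower, adjusted p = 0.00543) was the largest fall among the members. The other scaffold, Ppp2r1b, gave 104 and 58.5 against 58.4 and 47.5, a difference of 0.62 ± 0.27 (adjusted p = 0.127). Of the 5 B56 subunits (Ppp2r5a to Ppp2r5e), 2 rose, 2 fell and 1 was not called. That is 40% each way, against 21.2% higher and 20.4% lower of all genes tested. Ppp2r5a gave 16518 and 24930 against 6338 and 5627, a rise of 1.82 ± 0.28 (adjusted p = 0.00977). Ppp2r5c rose on all 3 of its probes, by 1.33, 1.66 and 2.53. Its adjusted p on the brightest probe was 0.0302, and 0.0967 without control IgG replicate 1, 0.0805 without control IgG replicate 2 and 0.0578 without CPEB2 IgG replicate 2. Ppp2r5d gave 1861 and 1368 against 7956 and 7619, a fall of 2.23 on the log2 scale (SE 0.25, adjusted p = 0.00595), and its second probe gave -2.46. Ppp2r5b gave 5199 and 3704 against 12027 and 10237 and fell by 1.29 (SE 0.24, adjusted p = 0.0157), with 0.0666 without control IgG replicate 1. Ppp2r5e gave 0.28 ± 0.27. B56 genes of one family therefore lay as far apart as 1.82 and -2.23. The brightest probes of Ppp2r5a and Ppp2r5c hold 21 G or C bases of 60, and those of Ppp2r5b and Ppp2r5d hold 33. Of all genes, 32.3% of those read by probes with up to 24 such bases were higher, and 27.5% of those above 24 were lower. Under GC-bin centring Ppp2r5a gave 1.60, Ppp2r5c 1.10, Ppp2r5b -0.79 and Ppp2r5d -1.74, all still called. The part of GC content in this division was not tested.

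Of the 4 B55 subunits, Ppp2r2c, the gamma subunit enriched in brain, gave 29759 and 30799 against 9234 and 14008 and rose by 1.47 ± 0.27 (adjusted p = 0.0149). Ppp2r2a gave 6156 and 5830 against 3109 and 3623 and rose by 0.89 ± 0.24 (adjusted p = 0.0427). Both calls were lost in most fits on 3 arrays, with adjusted p of 0.0585 to 0.0744 for Ppp2r2c without CPEB2 IgG replicate 1, CPEB2 IgG replicate 2 or control IgG replicate 1, and 0.0654 to 0.183 for Ppp2r2a without any array in turn. Ppp2r2b, the beta subunit, gave 5178 and 4966 against 4945 and 4700, at 0.13 ± 0.23, and Ppp2r2d fell by 0.84 (adjusted p = 0.0421, and 0.0707 to 0.167 without CPEB2 IgG replicate 2, control IgG replicate 1 or control IgG replicate 2). Among the rest, the activator Ppp2r4, now named Ptpa, gave -0.66 (adjusted p = 0.0775), and the calcium-binding B subunits Ppp2r3a and Ppp2r3d gave -0.35 and -0.47.

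The PP1 regulators, the largest set, had 37 of 42 members tested, of which 6 were higher and 11 lower (16.2% and 29.7%, against 21.2% and 20.4% of all genes), with a median of -0.32. Their probes had a median GC content of 45%, and all genes read by probes with more than 24 G or C bases of 60 were 11.9% higher and 27.5% lower with a median of -0.36. The 24 PP1 regulators in that class had 4 higher and 9 lower (16.7% and 37.5%) with a median of -0.79, and the other 13 had 2 higher and 2 lower with a median of -0.08. The highest was Ppp1r14b, a phosphorylation-dependent PP1 inhibitor of the CPI-17 family, at 22901 and 22913 against 5334 and 3911 (2.38 ± 0.25, 5.20-fold, adjusted p = 0.00554). A second probe of that symbol, annotated on the X chromosome, gave 2.43, and the pair may not be separate measurements because near-identical copies can share hybridisation. Within this family Ppp1r14c gave 1025 and 1630 against 421 and 984 and rose by 1.06 (adjusted p = 0.0351, but 0.158 with no replicate block and 0.185 to 0.511 without CPEB2 IgG replicate 1, CPEB2 IgG replicate 2 or control IgG replicate 1) and Ppp1r14a, CPI-17 itself, gave 784 and 656 against 2336 and 2076 and fell by 1.57 (adjusted p = 0.0089). The glycogen-targeting subunits also divided. Ppp1r3d gave 2720 and 3541 against 1094 and 1007 and rose by 1.62 ± 0.25 (adjusted p = 0.00984), Ppp1r3c rose by 0.98 (adjusted p = 0.0486, and 0.0821 to 0.141 without CPEB2 IgG replicate 2, control IgG replicate 1 or control IgG replicate 2), and Ppp1r3g gave 317 and 365 against 1241 and 1032 and fell by 1.68 (adjusted p = 0.00886). Ppp1r3b gave 10542 and 17123 against 34887 and 6909. Its control arrays lay on either side of the CPEB2 IgG arrays, and its experiments gave -1.64 and 1.33.

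All 3 myosin-targeting subunits were lower on the brightest probe, Ppp1r12a at -1.15, Ppp1r12b at -1.52 and Ppp1r12c at -1.06 (adjusted p of 0.0263, 0.0143 and 0.0234), at a median probe GC content of 53.3%, and 20.4% of all genes and 27.5% of those above 24 G or C bases were lower. The second probe of Ppp1r12a gave 0.82, and the other tested probes of Ppp1r12b gave -0.61 and -0.06, while Ppp1r12c has 1 probe. GC-bin centring left Ppp1r12a called (-0.92) and moved Ppp1r12b, read there by another probe, to -0.29 and Ppp1r12c to -0.55, neither called. Ppp1r12a was not called without CPEB2 IgG replicate 1 (adjusted p = 0.0568), CPEB2 IgG replicate 2 (0.0525) or control IgG replicate 1 (0.104), nor Ppp1r12c without control IgG replicate 1 (0.0826) or 2 (0.07). Inhibitor-3 (Ppp1r11) gave 3353 and 2720 against 11809 and 11562 and fell by 1.90 (SE 0.24, adjusted p = 0.00688), and Ppp1r35, a centriole protein, fell by 2.06 (adjusted p = 0.00614) at dim signals. Inhibitor-5 (Ppp1r1c) fell by 2.08, but at 25.1 and 12.9 against 63.8 and 97.2 it lay near background, only 1 of the CPEB2 IgG arrays detected it, and without CPEB2 IgG replicate 2 its adjusted p was 0.0625. The other tested probes of Ppp1r1c gave -0.47 and -0.44 and were not called, the mean of its probes gave -1.0 (adjusted p = 0.085), and normexp background correction gave -0.69. The remaining called regulators of PP1 were Ppp1r26 (1.21), Ppp1r7 (-1.16), Ppp1r13l (-1.15) and Ppp1r16a (-0.89), all 4 of which lost their calls without control IgG replicate 1 (adjusted p of 0.0965, 0.0564, 0.0681 and 0.197) and without control IgG replicate 2 (0.06, 0.0719, 0.0508 and 0.104), and Ppp1r26 and Ppp1r16a also without CPEB2 IgG replicate 2 (0.06 and 0.112). The 20 PP1 regulators that were not called lay between -1.36 (Ppp1r36) and 0.75 (Ppp1r15a).

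Among the PP1 regulators known best at synapses, neurabin-1 (Ppp1r9a) gave 16136 and 14147 against 7051 and 6168, a rise of 1.25 ± 0.23 (adjusted p = 0.0149). Its adjusted p was 0.0556 without control IgG replicate 2, and a second, dimmer probe gave -0.80. Spinophilin (Ppp1r9b), its paralogue and the scaffold that holds PP1 in dendritic spines, gave 22409 and 21388 against 26248 and 20192, with overlapping arrays and a difference of -0.02 ± 0.24. DARPP-32 (Ppp1r1b), which becomes a PP1 inhibitor once PKA phosphorylates it, gave 58023 and 45895 against 35577 and 35074. Its arrays did not overlap, and the difference of 0.60 ± 0.25 had an adjusted p of 0.114, which became 0.0112 under GC-bin centring (1.09). Inhibitor-1 (Ppp1r1a) gave -0.75 ± 0.23 (adjusted p = 0.0588, 0.0373 with no replicate block) and inhibitor-2 (Ppp1r2), whose 5 probes ranged from -0.65 to 0.82, gave -0.16. The eIF2 alpha phosphatase targeting subunits Ppp1r15a and Ppp1r15b gave 0.75 and 0.64 (adjusted p of 0.0588 and 0.0911), and Ppp1r15a was called with no replicate block (0.0357).

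Of the other regulators, Ppp4r2, a core regulatory subunit of PP4, gave 1280 and 1256 against 639 and 584 and rose by 1.11 ± 0.23 (adjusted p = 0.0204). Its adjusted p was 0.0615 without control IgG replicate 1 and 0.0712 without control IgG replicate 2. Ppp4r1 gave 0.12, its annotated copy Ppp4r1l-ps 0.21 and Ppp4r4 0.35. Ppp6r3, a PP6 targeting subunit, gave 720 and 854 against 264 and 232 and rose by 1.72 ± 0.25 (adjusted p = 0.00833), whereas Ppp6r1 gave -0.91 (adjusted p = 0.0674) and Ppp6r2 -0.40. Second probes of both called genes were not called, at -0.01 for Ppp4r2 and -0.36 for Ppp6r3. Prkcsh fell by 0.89 (adjusted p = 0.0375, and 0.128 and 0.116 without control IgG replicate 1 or 2) and Prkcdbp gave -0.57 (adjusted p = 0.137).

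**Figure D3:**
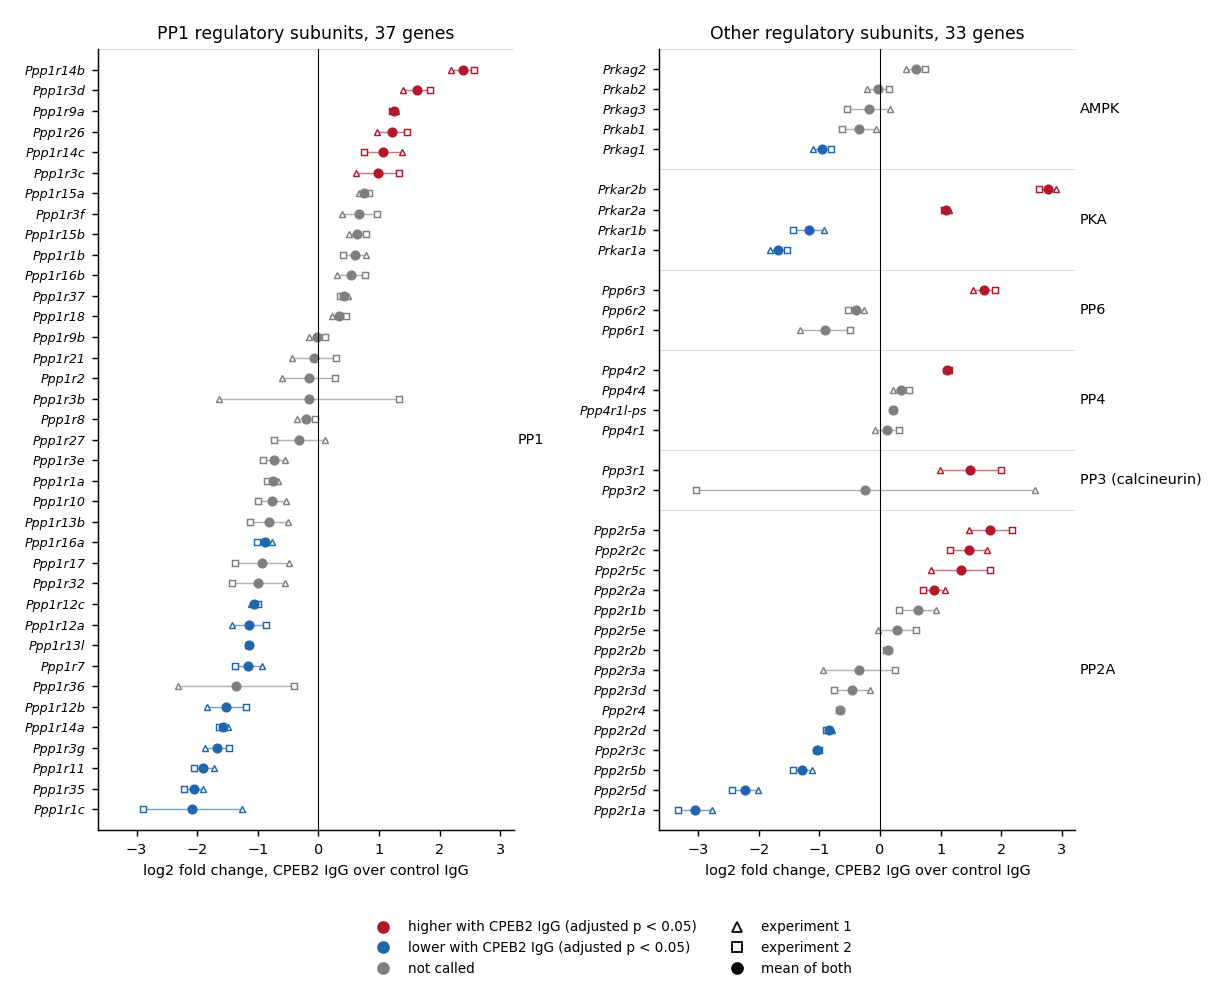
Log2 fold change of CPEB2 IgG over control IgG for the 70 tested regulatory members, with PP1 regulators on the left and all other families on the right. Open triangles and squares are the 2 experiments and filled circles their mean, coloured by the limma call. Prkar2b (2.77) and Ppp2r1a (-3.05) mark the ends, and Ppp1r3b and Ppp3r2 have experiments on opposite sides of 0.

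Set by role, 9 of the 26 catalytic members were higher and 5 lower (34.6% and 19.2%), and their median was 0.48. Of the 70 tested regulatory members 15 were higher and 19 lower (21.4% and 27.1%), with a median of -0.19. Both roles can be read against 21.2% higher and 20.4% lower over all genes. The catalytic median was above the regulatory median in experiment 1 (0.41 and -0.19) and in experiment 2 (0.53 and 0.03). By enzyme, the 11 phosphatase catalytic members had 5 higher and 1 lower with a median of 0.64, and the 15 kinase catalytic members had 4 and 4 with a median of 0.20. The probes of these sets differed in base composition, with a median GC content of 35% for the phosphatases and 43.3% for the kinases, and the part of GC content in this contrast was not tested. Under each scaling, filter, probe choice and left-out array tried, the catalytic median exceeded the regulatory median by 0.50 to 0.74, and median centring placed the regulatory median at 0.03 rather than below 0. The difference between the roles was not tested, since genes of a family are not replicates.

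Base composition moved with the result. The catalytic members were read by probes with a median GC content of 40% and the regulatory members by probes with 43.3%. Over all genes, those read by probes with up to 24 G or C bases of 60 had a median log2 fold change of 0.29, with 32.3% higher and 12% lower, and those above 24 had a median of -0.36, with 11.9% higher and 27.5% lower. The members followed that division, with 17 higher and 7 lower of 46 at up to 24 bases and 7 higher and 18 lower of 52 above it. Within the first class the catalytic members had a median of 0.96 (8 of 14 higher, 1 lower) and the regulatory members 0.05 (9 of 32 higher, 6 lower). Within the second the catalytic median was -0.23 (1 of 12 higher, 4 lower) and the regulatory median -0.56 (6 of 38 higher, 13 lower). When each array was centred within bins of GC content the medians were 0.43 and -0.07. Of the 24 members called higher 23 were called higher again, of the 25 called lower 20 were called lower again, and none changed sign. Calls lost that way were those of Ppp1r3c among the higher members and of Ppp1r12b, Ppp1r12c, Ppp1r16a, Ppp2r2d and Prkcsh among the lower. Newly called were Ppp1r1b, Ppp1r37, Ppp2r1b and Prkch as higher and Ppp6r1 as lower. The part of base composition in the remaining differences was not tested.

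**Figure D4:**
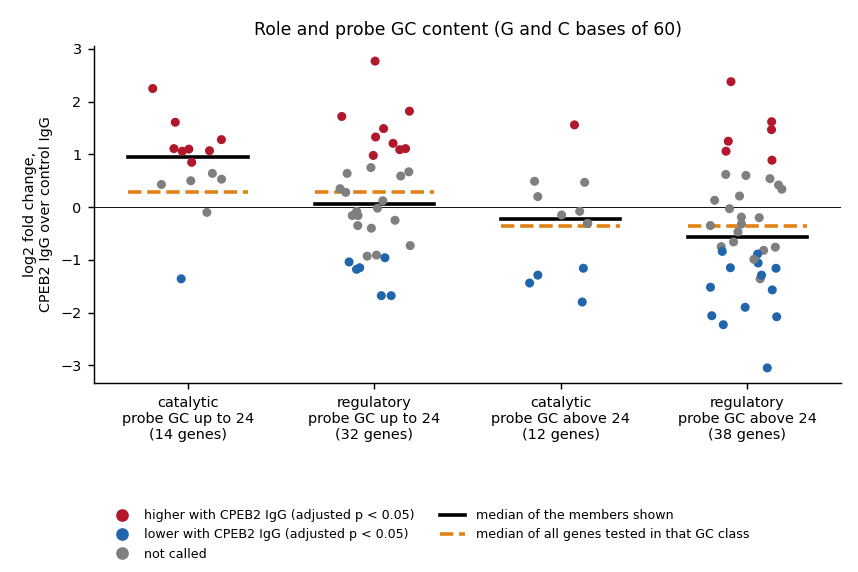
Log2 fold change of each tested catalytic and regulatory member, divided by whether its probe holds up to 24 or more than 24 G or C bases of 60. Black lines are the medians of the members shown and dashed orange lines the medians of all genes tested in that class. In both classes the catalytic median lies above the regulatory one, at 0.96 and 0.05 on the left and -0.23 and -0.56 on the right.

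Several members were read by more than 1 probe, and these did not always give 1 answer. Fitted one by one over all 41137 detected probes, 27 of 142 member probes were higher (12.7% of all probes) and 24 were lower (14.8%). Of 34 genes with at least 2 tested probes, 21 had the same outcome on every probe. That count includes genes with no probe called, such as Ppp2ca at 0.43 and -0.44. Every probe was called in the same direction for Prkar2b, Ppp1r14b, Prkca, Ppp2r5c, Ppp2r5d, Prkar1b and Prkcd. The sign was the same on every probe in 20 genes, and 15 had probes more than 1 log2 unit apart. The same counts over all genes with several probes were not made. Only Ppp2r3c, a regulatory subunit of PP2A, had a call in each direction. Its probe at chr12:56382500-56382559 gave 691 and 732 against 1531 and 1502, a difference of -1.04, and its probe at chr12:56381986-56382045 gave 163 and 183 against 82.5 and 68.5, a difference of 1.26. On both probes the antibodies were apart and the replicates close, in opposite directions. The gene's own call, from the first of these, was lost without control IgG replicate 1 (adjusted p = 0.0775) or 2 (0.0821). For Ppp1r8, a nuclear PP1 inhibitor, the brightest probe gave -0.20 and the other was called higher at 1.37. For Prkcz the 3 probes gave 0.93, -0.88 and 1.07 in the order of the transcript. For Ppp1r7, Sds22, the brightest probe was lower at -1.16 and the other gave 0.46.

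Along the chromosome in the direction of the annotated strand, the last tested probe could be set against the first in 33 genes. The downstream probe had the higher log2 fold change in 23 of them, with a median difference of 0.27. Where the pair was more than 1 log2 unit apart, the downstream probe was higher in 8 genes and the upstream probe in 3. In 10 genes the upstream probe was below 0 and the downstream one above it, and in 3 genes the reverse. The probe with fewer G or C bases was the higher one in 21 of these genes, the one with more in 7, and 5 pairs had equal counts. Ppp1r12a, Ppp1r7, Ppp6r3 and Ppp1r21 are examples in which the lower-GC probe was the higher one, whereas Ppp1r9a and Ppp2r3c went the other way. Ppp1r10 is also counted among the former, but its lower-GC probe was near background (7.2 to 27.9 units), with experiments at -0.53 and 0.82. Position and base composition were not separated. These counts were made over member genes only, so no share over all genes stands beside them and they are not traits of this set. Some pairs include a probe near background, as for Ppp1r1c, Ppp2r3a and the upstream probe of Prkar1a (16.3 to 41.3 units).

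**Figure D5:**
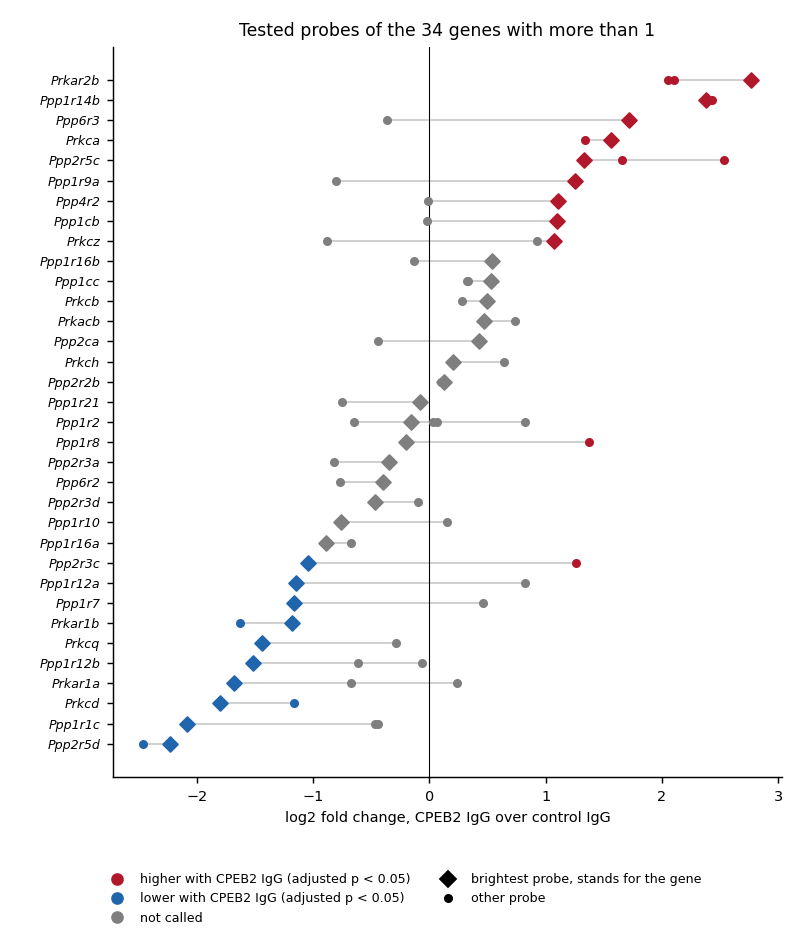
Log2 fold change of every tested probe of the 34 members with more than 1, ordered by the brightest probe (diamonds). Small circles are the other probes, and colours are the calls in the fit over all probes. All probes of Prkar2b, Ppp1r14b, Prkca, Ppp2r5c and Ppp2r5d were called the same way, and Ppp2r3c has probes called in opposite directions.

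The 9 member probes with TTTTAT or TTTTAAT were all tested. In the fit over all probes, whose adjusted p differ from those of the fit by gene, 3 of these were higher (those of Ppp2r5a, Prkca and Prkci shown above), 1 was lower (Ppp5c), and the median was 0.89. The probes of Ppp3cb, Ppp2r2a and Prkag1, called in the fit by gene, had adjusted p of 0.0606, 0.0735 and 0.0588 here. The 133 tested member probes without these letters had 24 higher, 23 lower and a median of -0.08. The same contrast was present over the whole array, where 27.8% of the 1867 tested probes with the letters were higher and 6.21% lower, against 12% and 15.2% of those without. The member probes with the letters had a median of 21 G or C bases and those without a median of 26, and the part of GC content in this contrast was not tested.

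Among the criteria of the study for its targets were more than 1.5-fold enrichment and more than 1000 units of raw signal, and a further one, a CPE in the 3'-UTR, was not applied here. A gene was counted if any of its probes passed, with the mean fold change of both experiments and the signal on at least 1 CPEB2 IgG array. So counted, 28 of the 103 members passed both of these limits, against 13.9% of all genes. Prkacb (0.74) and Ppp1r8 (1.37) passed on a probe other than the brightest. Among genes above 1000 units with CPEB2 IgG the shares were 49.1% of 57 members and 47.7% of all. Of the 28 members, 22 were also called higher by limma, and 2 called members did not pass both limits. Of the 63 members with a signal above 1000 on any array 34.9% were higher and 30.2% lower, near the 33.9% and 25.8% of all such genes. Of the 35 dimmer members 5.71% were higher and 17.1% lower, beside 12.4% and 16.7% of all dimmer genes.

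Partners of these enzymes that do not carry their names were taken from lists and counted the same way, to be read against 21.2% higher, 20.4% lower and a median of -0.11 over all genes tested. Of 18 tested A-kinase anchors and PKA inhibitors 7 were higher and 1 lower (38.9% and 5.56%), with a median of 0.24. All 3 heat-stable PKA inhibitors were higher, Pkia at 2.03, Pkib at 1.37 and Pkig at 1.76, and so were the anchors Akap1 (2.79), Akap9 (2.46), Akap11 (1.19) and Map2 (2.43), which is also among the neuron markers, while Akap8l was lower (-1.60). Akap5, the postsynaptic anchor that also holds calcineurin and PKC, gave 4668 and 6570 against 3886 and 4261, a difference of 0.50 (adjusted p = 0.161). Of 19 phosphatase regulators with other names 7 were higher and 4 lower (36.8% and 21.1%), with a median of 0.39. The PP2A inhibitor Arpp19 (1.78) and the PKA substrate Arpp21 (1.35) were higher, as were the calcineurin regulators Cabin1 (1.64) and Rcan3 (1.23), while the PP2A methyltransferase Lcmt1 (-1.62), the methylesterase Ppme1 (-1.13) and the PP2A-binding Igbp1 (-1.48) were lower. Of 9 PKC substrates and partners 1 was higher (11.1%), Add3 (1.81), and 4 were lower (44.4%), Marcksl1 (-0.99), Nrgn (-0.95), Gap43 (-0.92) and Add2 (-1.19). Of 17 tested serine/threonine phosphatases of the metal-dependent and other classes 9 were higher and 2 lower (52.9% and 11.8%), with a median of 0.94, led by Pptc7 (2.15) and Ppm1d (1.93). Of 8 cGMP and AMPK partners 2 were higher (25%), the guanylyl cyclase subunits Gucy1a2 (1.65) and Gucy1b3 (1.40), and none was lower.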

How the data were processed

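RNA from 2 immunoprecipitations with CPEB2 IgG and 2 with control IgG was measured on 4 one-colour arrays. The authors deposited scanner output from Agilent Feature Extraction 10.5.1.1, whose values are background-corrected spot intensities with no normalization between arrays. Control spots and spots marked as outliers were left out, 66 probes without a value on every array were dropped, and log2 intensities of 55615 probes were scaled to each array's 75th percentile, which added 0.08 and 0.02 to the log2 fold changes of experiments 1 and 2. The brightest probe detected on at least 2 arrays stood for a gene. limma 3.58.1 in R 4.3.3 was fitted over 19698 genes with the experiment as a block and Benjamini-Hochberg adjustment, with a threshold of 0.05.

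The block follows the methods, which divide each lysate between the antibodies and number the arrays alike. Arrays of the same number deviated together (r = 0.203 across genes). The arrays are few, their number limits the precision, and an exact permutation test of 2 against 2 arrays cannot go below p = 0.333, so no single-gene permutation test was made. limma draws the variance of each gene partly from all genes. The standard error was thus 0.23 for both Ppp3ca and Ppp1r1a, although the SD of their 2 experiments was 0.01 and 0.14. The p-values therefore do not measure a gene's own spread alone, and they concern these precipitations only.

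The members, lists and named genes were chosen with earlier results of these data known. By the naming rule every catalytic member is named, except 1 that is not reported here, and of the regulatory members the 8 largest and 8 smallest changes that passed the threshold the same way in both experiments, a set of family members chosen whatever their value, and further members named for their role. RefSeq matched 102 members by accession and 1 by symbol. Probe positions come from the annotation inside the deposited files, on build mm9. GC-bin centring used 12 bins because tied GC counts merged some of those planned. Python 3.11.15, numpy 2.4.6, pandas 2.3.3 and matplotlib 3.10.9 were used, and the fit was tested on simulated data. Alternatives were 16 changes of scaling, background correction, probe filter, probe choice, block and replicates, and fitting each probe alone was added after seeing the data.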

Additional observations from a re-analysis of the deposited data

How the results depend on the processing

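Of 67 named members, 21 kept their call and direction under all 16 alternatives, 7 higher (Ppp1r14b, Ppp1r3d and Ppp2cb among them), 8 lower (Ppp2r1a and Ppp2r5d among them) and 6 not called. Over 1070 values of named members, 923 stayed on their side of the threshold, 71 lost a call, 42 gained one and 34 changed sign. With no filter on dim probes the calls fell to 9 higher and 9 lower of 103 members, and to 2265 higher and 1837 lower of all 24164 genes tested. Leaving out each array in turn gave 10 to 24 higher and 15 to 27 lower, catalytic medians of 0.36 to 0.56 and regulatory medians of -0.18 to -0.15, in fits with no block on the 3 arrays that remained, where the lone array of an antibody is assumed to vary like the other pair. With no replicate block on 4 arrays, 23 members were higher and 26 lower, beside 4260 and 3999 of all 19698 genes. In that fit Ppp3cb lost its call (adjusted p = 0.0702), Ppp1r14c did too (0.158), and Ppp1r1a and Ppp1r15a gained one. When each probe was fitted alone, an alternative chosen after seeing the data, 21 members had a probe called higher and 21 a probe called lower, Ppp2r3c counted in both, and the brightest probes alone gave 19 and 21.

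The catalytic median moved to 0.57 under quantile normalization, 0.70 under median centring and 0.37 with the percentile taken over probes detected on all arrays, and the regulatory median reversed to 0.03 under median centring. Single genes whose sign turned were, under quantile normalization, Ppp1ca (0.19), Ppp1r9b (0.30), Prkag3 (0.027) and Prkar1a (0.17). Under median centring they were Ppp1ca (0.079), Ppp1r2 (0.066), Ppp1r9b (0.21), Ppp4c (0.14), Prkab2 (0.19), Prkaca (0.13) and Prkag3 (0.039). Under GC-bin centring they were Ppp1ca (0.36), Ppp4c (0.43), Ppp4r1 (-0.10), Prkab1 (0.038), Prkab2 (0.20), Prkaca (0.054), Prkag3 (0.20), Prkg1 (0.0039) and Prkg2 (0.0019), and with the mean of a gene's probes Ppp1r2 (0.02) and Ppp2ca (-0.0065). Leaving out each array in turn also turned signs, with values of -0.53 to 0.21 for Ppp1r2, -0.18 to 0.14 for Ppp1r9b (0.014 without CPEB2 IgG replicate 2), -2.72 to 2.23 for Ppp3r2 (0.073 without CPEB2 IgG replicate 2), -0.27 to 0.11 for Ppp4c, -0.038 to 0.27 for Ppp4r1, -0.24 to 0.18 for Prkab2, -0.43 to 0.23 for Prkaca (0.021 without CPEB2 IgG replicate 2), -0.39 to 0.016 for Prkag3 and -0.63 to 1.03 for Prkch. Apart from Prkar1a, whose probe changed, these genes were not called in the main setting, Ppp3r2 was called in opposite directions without each control IgG array, and the cause was not tested.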
